A study of Homo sapiens with 6 samples.

Results

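The ABC transporter family comprises ATP-driven membrane pumps and a few related soluble ATPases. It was taken as every gene whose single symbol on the array starts with ABCA, ABCB, ABCC, ABCD, ABCE, ABCF or ABCG followed by a number, without pseudogenes, with the brightest probe set on average standing for a gene that had several. This gave 42 genes of 18404, namely 7 drug exporters (ABCB1, ABCC1, ABCC2, ABCC3, ABCC4, ABCC5 and ABCG2) and 35 others. The series compared HCT116 cells, an established human colorectal carcinoma line, sorted for CD133 surface protein. It held 3 arrays of CD133+ cells and 3 of CD133- cells, numbered as repetitions 1, 2 and 3 in each fraction. Both fractions come from 1 cell line, and the labels name no difference in genotype or treatment between them. Nothing says that the repetitions were separate cultures or sorts, so a p-value here rests on array-to-array spread that may be purely technical.

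ABC proteins bind and hydrolyse ATP in a paired nucleotide-binding domain and use it to move substrates across a membrane. The drug exporters remove structurally diverse drugs, or drug conjugates with glutathione, glucuronate or sulfate, from cells, and in the gut some of them limit uptake from the lumen. Other members move cholesterol, phospholipids, bile salts, haem precursors or peptides, and the ABCE and ABCF proteins have no membrane domain and act on ribosomes and translation. Drug export is often examined in sorted tumour cells because ABCG2 and ABCB1 activity defines dye-excluding side populations.

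No ABC family gene differed between the fractions past the threshold. In the limma fit with fraction as the only term, 0 of 42 genes passed at a Benjamini-Hochberg adjusted p under 0.05, against 0.00543% of all genes, and 0 of 42 had an unadjusted p under 0.05, against 3.47% of all genes. In the limma fit with repetition as a block, again 0 of 42 passed, against 0.369% of all genes, while 7 of 42 had an unadjusted p under 0.05, against 11.6% of all genes. These 7 were ABCC2, ABCG2 and ABCB8, higher in CD133+ cells, and ABCB6, ABCC3, ABCC5 and ABCB11, lower in CD133+ cells. Their share of the family was 16.7%. The members' adjusted p in the fit without the block was 1.00 throughout, and with the block it ran from 0.161 to 0.982. The smallest p of an exact two-sided permutation test in this design is 0.1.

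Signals here are log2 values after Robust Multichip Average, and every difference is CD133+ minus CD133- on that scale. Each standard error (SE) is from the limma fit without the block, while every interval is from the fit with the block. A signal belongs to its own probe set, so levels were not set against each other between genes. The 42 differences ran from -0.29 to 0.44, with 16 above and 26 below 0, and their median was -0.028 against -0.0064 for all genes. The median absolute difference was 0.069 in the family and 0.086 over all genes. Within repetitions, 5 of 42 members were higher in CD133+ cells in 3 of 3 repetitions, against 17.7% of all genes, and 10 of 42 were lower in 3 of 3, against 18.4%. The arrays of the fractions did not overlap for 0 of 42 members higher in CD133+ cells, against 3.43% of all genes, and for 2 of 42 members lower in CD133+ cells, ABCC5 and ABCB9, against 4.52%.

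**Figure D1:**
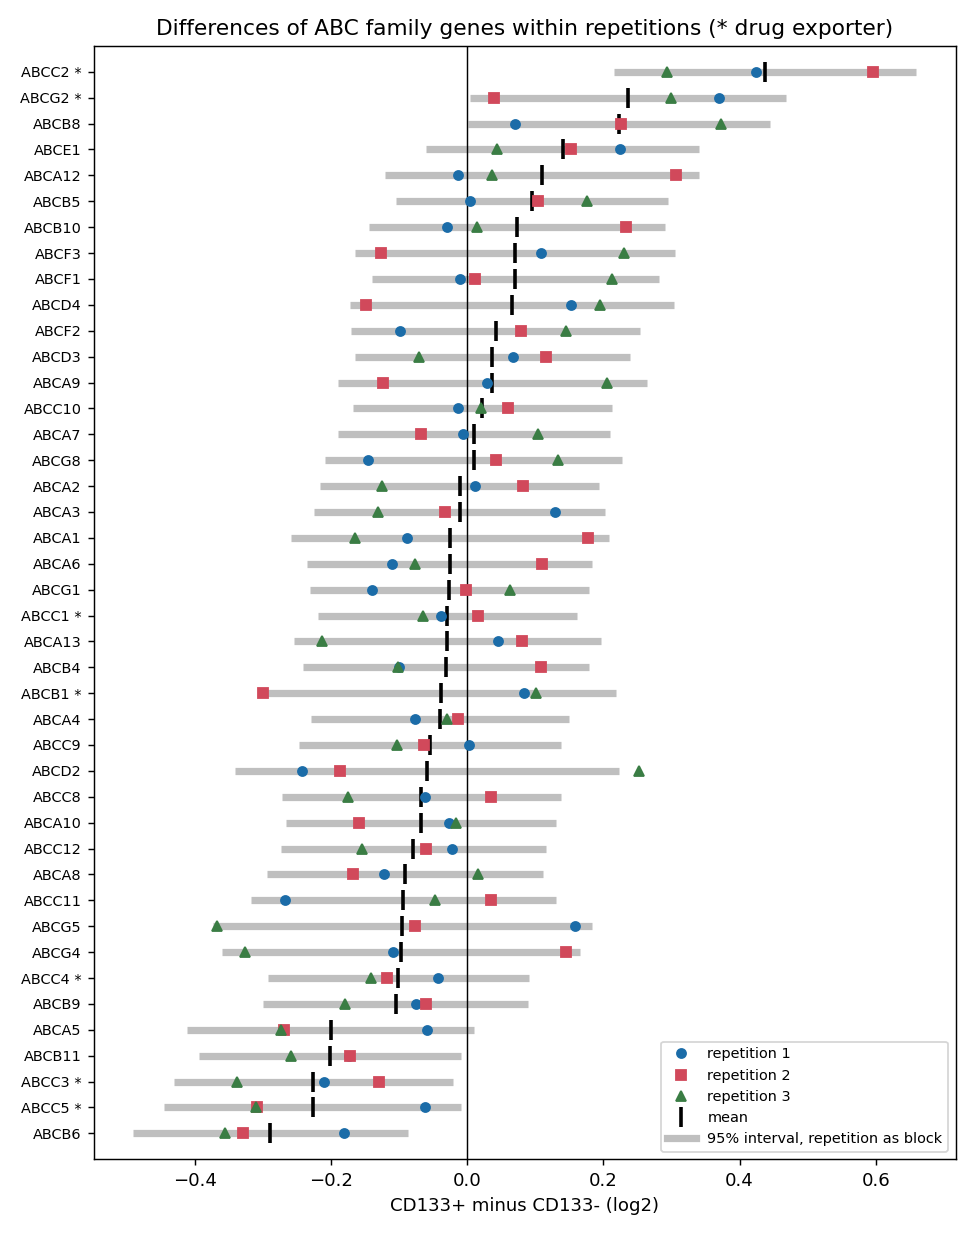
Differences of the 42 ABC family genes, CD133+ minus CD133-, on the log2 scale (horizontal axis), with 1 gene per row. Coloured points are the 3 repetitions, black ticks the means and grey bars the 95% limma intervals with repetition as a block; ABCC2 lies at the top with a mean of 0.44 and ABCB6 at the bottom with -0.29.

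PROM1, which encodes CD133, checked the labels of the sort. Its signal was 7.59, 7.36 and 7.09 in CD133+ cells, against 5.30, 4.46 and 3.97 in CD133- cells (repetitions 1, 2 and 3 in each, an order kept below). All 3 CD133+ arrays lay above all 3 CD133- arrays. The difference was 2.77 (SE 0.31), or 6.82-fold, with a limma adjusted p of 0.142 for fraction alone and 0.0120 with the block. Array medians of the tested probe sets ran from 5.44 to 5.60. Of 11 colon epithelial markers, 7 lay above the median probe set mean of 5.53, and KRT20, VIL1, CDH17 and GPA33 lay below it. Of the other cell types' markers, 1 of 7 for leukocytes, 1 of 8 for fibroblasts and 1 of 6 for endothelium lay above it, namely CD68, COL1A1 and CLDN5. The mean marker signal ran from 7.63 to 7.69 in CD133+ and from 7.53 to 7.73 in CD133- cells for colon epithelium. For leukocytes it was 4.23 to 4.44 in CD133+ and 4.19 to 4.54 in CD133- cells, for fibroblasts 4.503 to 4.74 in CD133+ and 4.56 to 4.83 in CD133- cells, and for endothelium 4.30 to 4.35 in CD133+ and 4.28 to 4.41 in CD133- cells. No marker passed in either limma fit, and what part marker differences had in the results was not tested. In all, 6 of 11 colon epithelial markers were higher and 5 lower, against 2 and 5 for leukocytes, 2 and 6 for fibroblasts and 1 and 5 for endothelium. In the fit without the block the 2 of smallest p in each list were KRT18 and KRT8 (-0.48 and -0.24), LAPTM5 and MS4A1 (-0.28 and -0.28), COL3A1 and DCN (-0.21 and -0.16), and PECAM1 and TEK (-0.12 and -0.074). CDH1 (0.40, second to KRT18 by p with the block) and CD68 (0.22, the leukocyte marker of smallest p with the block) were higher in 3 of 3 repetitions, and both are named after their values were seen. In sorted populations measured in bulk, fewer cells that express a gene and less RNA per cell cannot be told apart.

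Promoter sequence is shown for 4 members picked after their values were seen. ABCC2 had the largest difference between fractions in the family, which did not pass. ABCE1, ABCF1 and ABCF2 were the ribosome and translation genes called in the test between repetitions described below. ABCF3 had the same order of repetition means (8.13, 8.29 and 7.92) but was not called (limma adjusted p = 0.146). Each run holds the 250 bases before the RefSeq transcription start on GRCh38.p14, 5′ to 3′ on the gene's strand. Capitals mark matches on either strand to the E-box letters CACGTG, the GC box letters GGGCGG, the letters TATAAA or the letters GCGTG, the core bound by the dioxin receptor AHR, which controls ABCG2; no 2 matches overlapped in the runs shown. The ABCC2 run is chr10:99782390-99782639, plus strand, the ABCE1 run chr4:145098061-145098310, plus strand, the ABCF1 run chr6:30571192-30571441, plus strand, and the ABCF2 run chr7:151227206-151227455, minus strand.
ABCC2: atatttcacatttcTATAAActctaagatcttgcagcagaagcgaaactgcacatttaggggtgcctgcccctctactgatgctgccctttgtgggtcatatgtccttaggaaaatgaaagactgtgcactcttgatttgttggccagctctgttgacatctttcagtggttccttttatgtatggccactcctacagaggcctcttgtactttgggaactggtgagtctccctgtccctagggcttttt
ABCE1: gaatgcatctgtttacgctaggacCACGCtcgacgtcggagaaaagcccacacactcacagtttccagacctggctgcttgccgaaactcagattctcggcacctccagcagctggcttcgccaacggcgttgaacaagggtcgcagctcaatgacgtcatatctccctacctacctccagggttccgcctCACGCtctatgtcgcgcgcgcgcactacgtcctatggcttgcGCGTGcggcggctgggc
ABCF1: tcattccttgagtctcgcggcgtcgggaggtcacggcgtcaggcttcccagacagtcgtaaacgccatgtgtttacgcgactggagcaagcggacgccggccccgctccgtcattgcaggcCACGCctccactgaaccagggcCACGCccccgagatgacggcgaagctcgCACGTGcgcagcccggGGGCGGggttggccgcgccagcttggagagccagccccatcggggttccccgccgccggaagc
ABCF2: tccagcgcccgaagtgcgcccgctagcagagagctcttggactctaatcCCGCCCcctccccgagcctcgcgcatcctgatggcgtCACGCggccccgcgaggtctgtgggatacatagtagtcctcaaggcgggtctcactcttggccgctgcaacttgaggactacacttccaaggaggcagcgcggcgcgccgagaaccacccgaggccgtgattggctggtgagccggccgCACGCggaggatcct

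The ABCC2 run held 1 CG dinucleotide, against 24 in ABCE1, 31 in ABCF1, 26 in ABCF2 and a median of 11 over 35116 promoters of this length. It held 1 TATAAA and 0 matches to the other letters. GCGTG stood 3 times in ABCE1, 2 times in ABCF1 and 2 times in ABCF2, and 32.2% of all promoters hold it. CACGTG was in ABCF1 alone of the 4, and in 6.34% of all promoters, while GGGCGG was in ABCF1 and ABCF2 and in 42.6% of all, and TATAAA was in 10.7% of all. Of the 42 members 34 had a promoter in the RefSeq table, 11 of them more than 1, and at least 1 promoter held GGGCGG in 21 members, GCGTG in 16, CACGTG in 8 and TATAAA in 6. These member counts take any promoter of a gene, while the shares are per single promoter, so they cannot be set against each other. A match is a description of letters and not of a factor's binding.

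The drug exporters went both ways. Their probe sets were 8140782 (ABCB1), 7993478 (ABCC1), 7929779 (ABCC2), 8008454 (ABCC3), 7972297 (ABCC4), 8092418 (ABCC5) and 8101675 (ABCG2). ABCC2 and ABCG2 were higher in CD133+ cells in 3 of 3 repetitions, which held for 17.7% of all genes, ABCC3, ABCC4 and ABCC5 were lower in 3 of 3, as were 18.4% of all genes, and ABCB1 and ABCC1 changed sign between repetitions. Of the 7, 4 had an unadjusted p under 0.05 with the block (ABCC2, ABCC3, ABCC5 and ABCG2), against 11.6% of all genes, and 0 passed after adjustment. Their median difference was -0.039, with medians of -0.038, -0.12 and -0.065 within repetitions 1, 2 and 3, and their median absolute difference was 0.23. The other 35 members had a median difference of -0.026 and a median absolute difference of 0.067. The exporter median turned to 0.025 when CD133- repetition 2 was left out and to 0.021 when CD133+ repetition 3 was. Leaving out CD133+ repetition 1, CD133+ repetition 2 or CD133- repetition 3 gave -0.095, -0.091 and -0.073, and leaving out both arrays of repetition 1 or of repetition 3 gave -0.10 and -0.081.

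ABCC2 encodes the apical export pump for glutathione and glucuronate conjugates, also called MRP2. Its signal was 9.08, 8.65 and 8.18 in CD133+ cells, against 8.66, 8.06 and 7.88 in CD133- cells. The CD133+ array was the higher in every repetition, but repetition 1 of CD133- cells lay above repetition 3 of CD133+ cells, so the fractions overlapped. Means were 8.64 ± 0.45 over the 3 CD133+ arrays and 8.20 ± 0.41 over the 3 CD133- arrays (SD), and the difference of 0.44 (SE 0.27), or 1.35-fold, was of the size of the SD within a fraction. Within repetitions it was 0.42, 0.60 and 0.29. The difference was 0.22 without CD133+ repetition 1, 0.67 without CD133- repetition 1, 0.67 without CD133+ repetition 3 and 0.28 without CD133- repetition 3, and 0.36 to 0.51 with both arrays of a repetition left out. The limma adjusted p was 1.00 with fraction alone and 0.161 with the block, the smallest of the 42 members, and the block gave a 95% interval of 0.22 to 0.66, or 1.16 to 1.58-fold.

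ABCG2, the exporter known as breast cancer resistance protein, had signals of 4.22, 4.18 and 3.95 in CD133+ cells, against 3.85, 4.14 and 3.65 in CD133- cells. CD133+ cells were higher in each repetition, by 0.37, 0.039 and 0.30, and the fractions overlapped through repetition 2 of CD133- cells. The difference was 0.24 (SE 0.15), with a 95% limma interval of 0.0044 to 0.47 with the block, or 1.00 to 1.38-fold (block adjusted p = 0.433). It was 0.37 without CD133- repetition 2 and 0.12 without CD133- repetition 3. ABCG2 lay below the median probe set mean on all 6 arrays.

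ABCB1 encodes P-glycoprotein, the classic exporter of hydrophobic drugs. Its signal was 4.70, 4.59 and 4.47 in CD133+ cells, against 4.62, 4.89 and 4.37 in CD133- cells. Repetitions 1 and 3 were slightly higher in CD133+ cells and repetition 2 was lower, giving within-repetition differences of 0.083, -0.30 and 0.10. The mean difference was -0.039 (SE 0.15), and the 95% limma interval with the block, -0.30 to 0.22, left room for 0.814 to 1.16-fold. Like ABCG2 it lay below the median probe set mean.

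ABCC1, or MRP1, the broadly expressed exporter of glutathione conjugates and leukotriene, measured 8.39, 8.52 and 8.27 in CD133+ cells, against 8.43, 8.50 and 8.34 in CD133- cells. The fractions overlapped, and the within-repetition differences of -0.038, 0.015 and -0.065 had both signs. Its interval with the block was the narrowest of the 7 exporters, at -0.22 to 0.16 around -0.029 (limma, 95%).

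ABCC3, the MRP3 pump of the basolateral membrane, measured 6.20, 6.07 and 6.43 in CD133+ cells, against 6.41, 6.20 and 6.77 in CD133- cells. The CD133+ array was the lower in all 3 repetitions, while its repetition 3 lay above repetitions 1 and 2 of CD133- cells. Differences within repetitions were -0.21, -0.13 and -0.34, and the mean of -0.23 (SE 0.17) had a limma interval of -0.43 to -0.021 and an adjusted p of 0.399 with the block. It was -0.14 without CD133+ repetition 2, -0.36 without CD133- repetition 2 and -0.071 without CD133- repetition 3.

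ABCC5, or MRP5, which exports cyclic nucleotides and nucleotide analogues, measured 6.23, 6.10 and 5.998 in CD133+ cells, against 6.29, 6.41 and 6.31 in CD133- cells. It was the 1 exporter whose fractions did not overlap, every CD133+ array lying below every CD133- one. Means were 6.11 ± 0.11 over the 3 CD133+ arrays and 6.34 ± 0.067 over the 3 CD133- arrays (SD), which is 0.854-fold or -0.23 on the log2 scale (SE 0.11). The limma adjusted p was 1.00 for fraction alone and 0.421 with the block (interval -0.45 to -0.0089). The repetitions gave -0.062, -0.31 and -0.31.

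ABCC4, or MRP4, a pump for cyclic nucleotides and prostaglandins, measured 8.33, 8.58 and 8.12 in CD133+ cells, against 8.37, 8.69 and 8.26 in CD133- cells. It was lower in CD133+ cells by a small amount in each repetition (-0.043, -0.12 and -0.14), and the fractions overlapped. The mean difference of -0.10 (SE 0.17) had a limma interval of -0.29 to 0.091 with the block (adjusted p = 0.701).

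**Figure D2:**
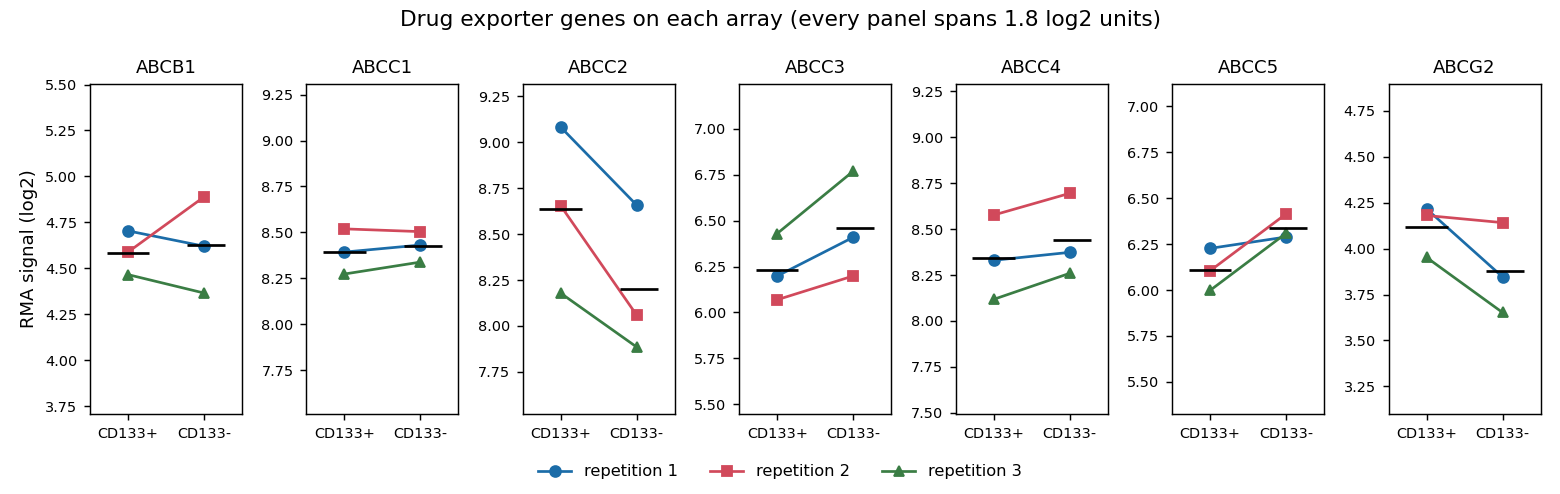
Log2 signals (vertical axis) of the 7 drug exporter genes in CD133+ and CD133- cells, with lines joining arrays of the same repetition and black bars at the means of 3 arrays. ABCC2 and ABCG2 slope down towards CD133- cells in all 3 repetitions, ABCC3, ABCC4 and ABCC5 slope up, and ABCB1 and ABCC1 do both.

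The mitochondrial and lysosomal transporters, built from paired identical chains, numbered 4 measured members, 2 higher and 2 lower, and 0 passed. ABCB6, a porphyrin transporter first described in mitochondria, had the lowest difference of the family. Its signal was 7.20, 6.55 and 6.84 in CD133+ cells, against 7.38, 6.88 and 7.19 in CD133- cells. Each repetition was lower in CD133+ cells (-0.18, -0.33 and -0.36), and the fractions overlapped, with repetition 1 the highest in both. The difference was -0.29 (SE 0.20), with a limma interval of -0.49 to -0.087 and an adjusted p of 0.284 with the block. It was -0.46 without CD133+ repetition 1, -0.18 without CD133- repetition 1 and -0.13 without CD133+ repetition 2.

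ABCB8, of the inner mitochondrial membrane, went the other way at 0.22 (SE 0.13). Its arrays read 6.76, 6.84 and 6.67 in CD133+ cells, against 6.69, 6.61 and 6.30 in CD133- cells. Repetition 3 contributed the widest gap and repetition 1 the narrowest (0.071, 0.23 and 0.37). ABCB8 was the 1 member with more than 1 probe set, and its other 2 probe sets gave -0.032 and 0.043, each with both signs among the repetitions, so the probe sets disagreed.

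ABCB9, a lysosomal peptide transporter, had signals of 5.88, 5.89 and 5.80 in CD133+ cells, against 5.96, 5.95 and 5.98 in CD133- cells. All 3 CD133+ arrays lay below the CD133- ones, by a difference of -0.11 (SE 0.099) that was small in each repetition (-0.075, -0.061 and -0.18) and did not pass (limma block adjusted p = 0.691). ABCB10, a mitochondrial transporter needed for haem synthesis, had a difference of 0.073.

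Sterol, phospholipid and bile salt transporters were the widest role with 18 members, 4 higher and 14 lower, a median of -0.028 and 0 passing in either limma fit. ABCB11, the bile salt export pump of the liver, measured 2.54, 2.42 and 2.74 in CD133+ cells, against 2.72, 2.59 and 3.001 in CD133- cells. It was lower in each repetition (-0.17, -0.17 and -0.26), with overlapping fractions, at low signals on every array. The difference was -0.20 (SE 0.15; block adjusted p = 0.418).

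ABCA5, a lysosomal lipid transporter, measured 5.62, 5.001 and 5.05 in CD133+ cells, against 5.68, 5.27 and 5.32 in CD133- cells. Repetition 1 was the highest in both fractions, and the difference was -0.20 (SE 0.20) with -0.058, -0.27 and -0.27 within repetitions. ABCA12, the keratinocyte lipid transporter, measured 3.60, 3.71 and 3.61 in CD133+ cells, against 3.61, 3.41 and 3.58 in CD133- cells. Its difference of 0.11 rested mainly on repetition 2, where it was 0.31. ABCA8, a cholesterol exporter, measured 2.72, 2.81 and 2.94 in CD133+ cells, against 2.84, 2.98 and 2.92 in CD133- cells, a difference of -0.092 with both signs among repetitions (-0.12, -0.17 and 0.016).

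The main cholesterol exporters had small differences with intervals on both sides of 0. ABCA1, which loads apolipoprotein A-I, had a difference of -0.025 (SE 0.22) and a limma interval of -0.26 to 0.21 with the block. ABCG1, which loads high-density lipoprotein, had -0.026 (interval -0.23 to 0.18). The sterolin genes ABCG5 and ABCG8, whose products form 1 heterodimer, had -0.095 and 0.0095, and the neuronal ABCG4 had -0.097. Among the other lipid transporters, ABCA2 had -0.011, the lung surfactant transporter ABCA3 -0.011, the retinal ABCA4 -0.040, the phagocytosis-linked ABCA7 0.010, ABCA13 -0.029 and the phosphatidylcholine floppase ABCB4 -0.031.

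Genome position grouped some of these members. ABCA8, ABCA9, ABCA6, ABCA10 and ABCA5 are consecutive protein-coding genes in RefSeq. Within this cluster the differences were -0.092, 0.037, -0.026, -0.068 and -0.20, and ABCA5 was the lowest of them. The neighbours ABCB4 and ABCB1 had -0.031 and -0.039, the neighbours ABCG5 and ABCG8 the values above, and the neighbours ABCC12 and ABCC11 -0.079 and -0.094. None of these pairs or clusters held a gene that passed.

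Peroxisomal and cobalamin transporters numbered 3 measured members, 2 higher and 1 lower, with 0 passing. ABCD3, the main ABC protein of the peroxisomal membrane, had 0.037 (limma interval with the block -0.17 to 0.24), the very long-chain fatty acid transporter ABCD2 had -0.060, and ABCD4, which works in lysosomal cobalamin release, had 0.066. Of 6 channel regulators and other ABCC members 5 were measured, 1 higher and 4 lower, with 0 passing. The channel regulators ABCC8 and ABCC9, the sulfonylurea receptors of potassium channels, had -0.067 and -0.055, and ABCC10, a further MRP pump, had 0.022. ABCB5, known from melanoma, measured 2.92, 3.09 and 2.93 in CD133+ cells, against 2.92, 2.99 and 2.76 in CD133- cells. Its difference of 0.095 was close to the SD within a fraction, and repetition 1 was level at 0.0047.

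The 4 members without a membrane domain were higher in CD133+ cells on average, by small amounts, and 0 passed. ABCE1, which splits ribosomes after translation ends, had 0.14 with 0.22, 0.15 and 0.043 within repetitions (limma interval with the block -0.061 to 0.34). ABCF1, a partner of initiation factor eIF2, had 0.071, ABCF2 0.042 and ABCF3 0.071.

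ABCE1, ABCF1 and ABCF2 separated the repetitions more than the fractions, as did, by share of variance, 37 of 42 members and 83.5% of all genes. These shares were not scaled for repetition having more levels than fraction. ABCF2 measured 7.83, 8.76 and 7.91 in CD133+ cells, against 7.93, 8.68 and 7.77 in CD133- cells. Both arrays of repetition 2 lay above the 4 other arrays. Its means over both fractions were 7.88, 8.72 and 7.84 in repetitions 1, 2 and 3, and repetition took 98.2% of its variance. ABCE1 measured 9.52, 10.10 and 9.26 in CD133+ cells, against 9.30, 9.94 and 9.21 in CD133- cells, again with repetition 2 on top in both fractions, and ABCF1 measured 8.32, 8.76 and 8.29 in CD133+ cells, against 8.33, 8.75 and 8.08 in CD133- cells, with the same order.

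A limma test between repetitions, with fraction as a term, called 10 of 42 members at an adjusted p under 0.05, against 15.3% of all genes. The 10 were ABCF2 (adjusted p = 0.0167), ABCE1 (0.0187), ABCC2 (0.0207), ABCA2 (0.0207), ABCD3 (0.0312), ABCA7 (0.0313), ABCB6 (0.0375), ABCF1 (0.0376), ABCA1 (0.0414) and ABCA5 (0.0429). ABCF2, ABCE1, ABCD3 and ABCF1 were highest in repetition 2, while ABCA2, ABCA7, ABCB6, ABCA1 and ABCA5 were lowest there. ABCA2 averaged 8.15, 7.44 and 8.08 in repetitions 1, 2 and 3, and ABCA7 averaged 7.03, 6.41 and 6.74. ABCC2 had another order, with 8.87, 8.36 and 8.03. The count was 6 after repeated quantile normalization, against 10.8% of all genes, and 0 with the leading block of rows included, against 0.168%. It was 10 with arrays centred on their medians, 8 of them among the 10 above, against 20.9% of all genes, and 7 with no term for fraction, against 8.94%. Among the 20 members above the median probe set mean it was 11, of which 8 were among the 10, against 48.9% of such genes. Leaving out CD133+ or CD133- repetition 1 gave 3 each, against 7.74% and 9.32% of all genes, and leaving out CD133+ repetition 2 gave 1, against 3.43%. It was 0 without CD133- repetition 2, against 0.777% of all genes, without CD133+ repetition 3, against 0.217%, and without CD133- repetition 3, against 0.315%. Each of these fits keeps 1 array of a repetition.

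Repetition accounted for more variance than fraction in 37 of 42 members, or 88.1%, against 83.5% of all genes. Repetition has more levels than fraction, and the shares were not scaled for this. Repetition's share therefore tends to be the larger even without an effect. The 5 members with more variance between fractions were ABCC5, ABCB9, ABCA12, ABCC9 and ABCB8, and the fraction's share reached 68.8% in ABCC5 and 76.0% in ABCB9. In ABCB8 the shares were nearly equal, at 43.4% for fraction and 43.3% for repetition, and in ABCA12 59.7% of the variance lay in neither. The median share of a member's variance was 68.8% for repetition and 5.48% for fraction, against 67.8% and 8.21% over all genes. In the exporters the fraction's median share was 24.8% and the repetition's 69.7%. What differed between repetitions is not given in the labels.

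**Figure D3:**
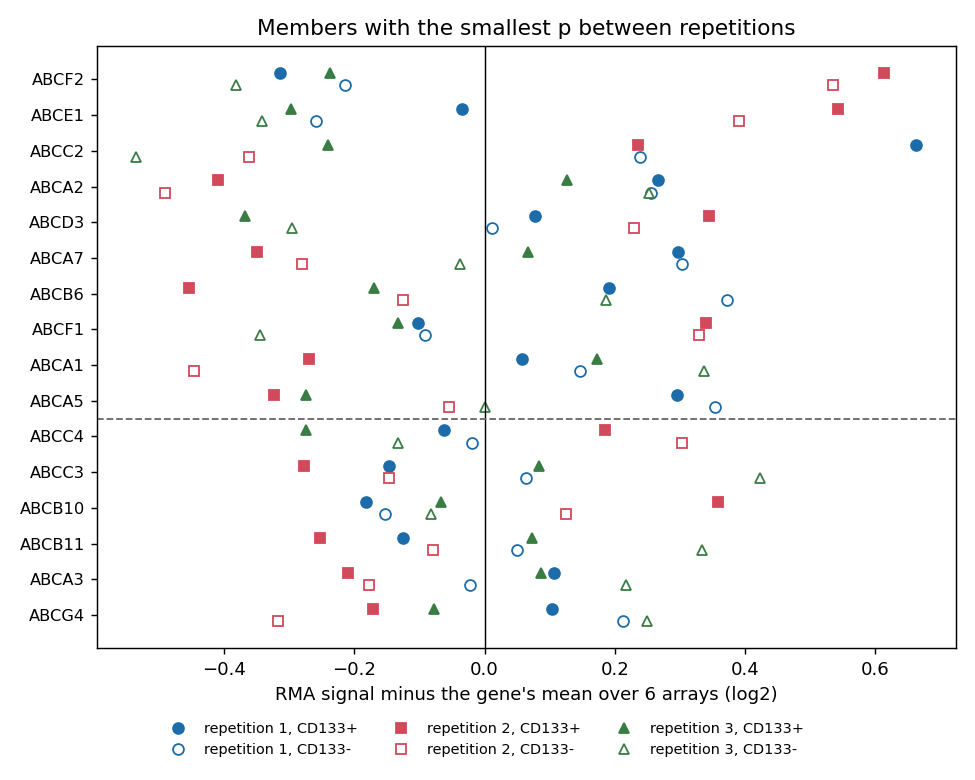
Signal of each array minus the gene's mean over 6 arrays, on the log2 scale (horizontal axis), for the 16 members with the smallest p between repetitions, 1 gene per row. Filled symbols are CD133+ and open symbols CD133- arrays; genes above the dashed line passed the limma test, and ABCF2, ABCE1, ABCD3 and ABCF1 have both squares of repetition 2 at the right.

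Genes related to the family were described in the same way. The ABC proteins with other symbols were TAP1 and TAP2, the subunits of the peptide transporter of antigen presentation, and CFTR, the chloride channel. TAP1 measured 7.84, 7.38 and 7.61 in CD133+ cells, against 7.60, 7.08 and 7.29 in CD133- cells, and TAP2 measured 7.77, 7.89 and 7.33 in CD133+ cells, against 7.47, 7.63 and 6.87 in CD133- cells. Both were higher in CD133+ cells in every repetition, with differences of 0.29 (SE 0.18) and 0.34 (SE 0.23), and neither passed (block adjusted p = 0.255 and 0.229). TAP2 is uncertain: its other 2 probe sets gave 0.26 and -0.0072 and disagreed in sign between repetitions. CFTR, at low signals, measured 2.94, 2.67 and 2.69 in CD133+ cells, against 2.98, 2.97 and 3.07 in CD133- cells. Its fractions did not overlap, with a difference of -0.24 (SE 0.12; block adjusted p = 0.426).

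Of 18 nuclear receptors and factors that control ABC genes, 14 were measured, 5 higher and 9 lower, and 0 passed in either limma fit. PPARG, which drives ABCA1 and ABCG1 through the liver X receptors in macrophages, measured 6.32, 6.50 and 6.50 in CD133+ cells, against 6.04, 6.14 and 6.17 in CD133- cells. The fractions did not overlap, and the difference was 0.33 (block adjusted p = 0.209). NR0B2, a corepressor of bile acid signalling, had -0.28. Of 14 partners of ABC proteins, 12 were measured, 8 higher and 4 lower, with 0 passing. MSN, encoding moesin, which anchors membrane proteins to actin, had -0.40 with every CD133+ array below every CD133- one (block adjusted p = 0.147), and the scaffold gene NHERF1 had 0.11.

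Of 12 genes of glutathione and conjugation, which make the substrates of the MRP pumps, 11 were measured, 7 higher and 4 lower, with 0 passing. MGST1, a microsomal glutathione transferase, measured 7.44, 7.70 and 7.39 in CD133+ cells, against 7.11, 7.34 and 6.80 in CD133- cells, a difference of 0.43 (block adjusted p = 0.164). GSTM1 had -0.29, with -0.031, -0.51 and -0.32 within repetitions. This value is uncertain, as close paralogs share much of its sequence, and whether they reach this probe set was not tested. Of 19 genes of drug carriers outside the ABC family, most of them for uptake, 16 were measured, 7 higher and 9 lower, with 0 passing. Of these, 5 were higher in 3 of 3 repetitions, against 17.7% of all genes, and 0 lower in 3 of 3, against 18.4%. The partners and the glutathione and conjugation genes each had 5 higher and 2 lower in 3 of 3. Without the block the carrier genes of smallest p were SLC47A2 at -0.21 and SLCO1B3 at -0.29, each with both signs among repetitions. SLC47A2, like SLC47A1 in the same list, encodes an exporter of organic cations and not an uptake carrier. With the block it was the nucleoside carrier gene SLC29A2, at 0.23, higher in 3 of 3 and named after its values were seen (block adjusted p = 0.369).

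**Figure D4:**
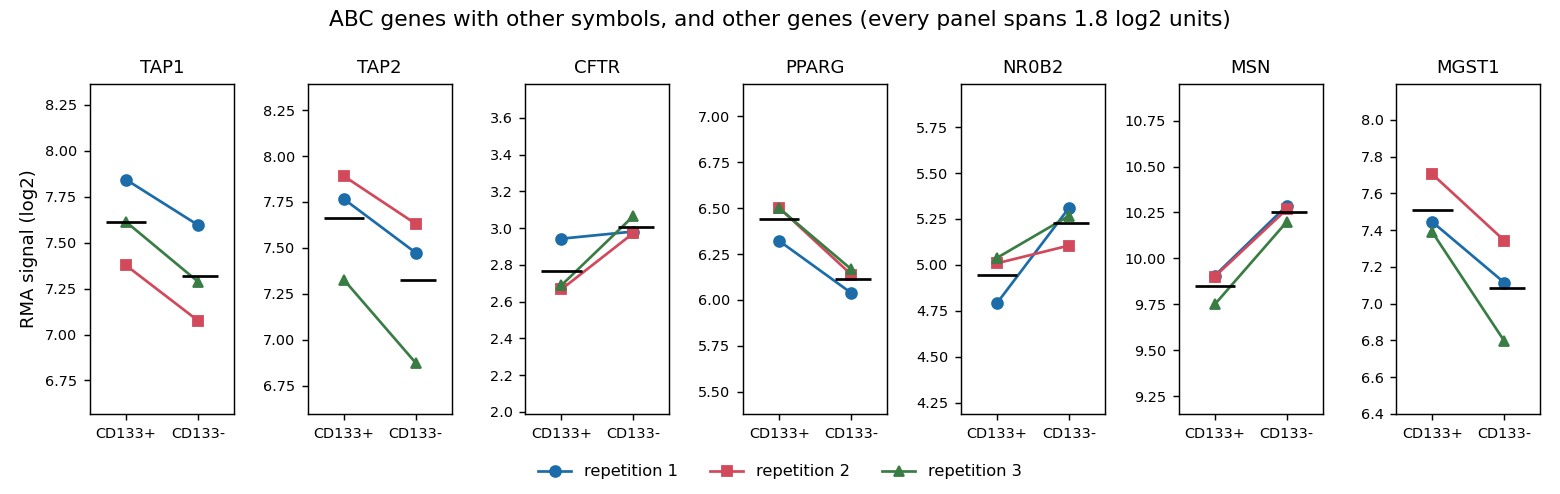
Log2 signals (vertical axis) of TAP1, TAP2, CFTR, PPARG, NR0B2, MSN and MGST1 in CD133+ and CD133- cells, with lines joining arrays of the same repetition and black bars at the means of 3 arrays. TAP1, TAP2, PPARG and MGST1 slope down towards CD133- cells and CFTR, NR0B2 and MSN slope up in all 3 repetitions; no gene shown passed.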

How the data were processed

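Total RNA of sorted HCT116 fractions was biotin-labelled with an Affymetrix WT kit, per the labels' protocols, and measured on 6 arrays. The authors deposited log2 signals made with Robust Multichip Average (RMA), per the submitters' processing notes; their range of 1.09 to 13.7 is that of a log2 scale. The RMA version was not given in the sources used here. A U133 array is named in the series' design, but the probe set identifiers matched a Human Gene ST annotation and genes were named from it. Of 32321 rows, a leading block of 4091 before the first annotated row was left out, leaving 28230 probe sets, of which 19158 carried 1 symbol (18404 genes). The number of arrays limits the precision.

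Fits used limma 3.58.1 in R 4.3.3 across all 28230 probe sets, with Benjamini-Hochberg adjustment, after tests on simulated data. Fraction was the only term of the main design. Deviations of same-numbered arrays from their fraction means correlated at 0.447 to 0.616 across probe sets, so the numbers paired the arrays by the data, and a block fit is given too. The members, gene lists and tests were chosen with earlier results of these data known, and the test between repetitions was added after the values were seen. The rule for named genes took PROM1 and all members, with every array's value for the exporters and for the 8 others of smallest p, and in each related list the 2 genes of smallest p where none passed, with p from the fit without the block. Alternatives covered normalization, filters, probe set choice and left-out arrays. Promoter sequences are from RefSeq (GRCh38.p14), matched by symbol.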

Additional observations from a re-analysis of the deposited data

How the results depend on the processing

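The count of 0 ABC family genes past the threshold between fractions held in all 16 other settings, the lowest adjusted p of a member being 0.161, for ABCC2 with the replicate block. Of all 28230 probe sets, 1 passed in the main fit, 84 with the replicate block and 0 after repeated quantile normalization or centring on array medians. With so few called over all probe sets, a count of 0 among 42 members says little. In that fit with the replicate block 0 members passed and 7 had an unadjusted p under 0.05, against 0 and 0 without the block, so it changed no call. Of 42 members, 17 kept their sign in each setting that gave them a value. For 6 of them, ABCC2, ABCC3 and ABCC5 included, that was all 16 settings, while the other 11, ABCG2 included, were left out by the filter on dim probe sets. Their sizes still moved when arrays were left out, ABCC5 between -0.31 and -0.17, ABCB8 between 0.11 and 0.30, ABCB11 between -0.29 and -0.086, ABCA5 between -0.40 and -0.073 and ABCA12 between 0.011 and 0.17. After repeated quantile normalization ABCA7 turned to -0.0025. With probe sets at or below the median mean left out, the exporter median was -0.10 over 5 genes and the median of the others 0.037 over 15 genes, since fewer genes were tested. With arrays or repetitions left out, the exporter median ran from -0.10 to 0.025, the median of the others from -0.068 to 0.0065, and the sign of 25 members turned in at least 1 setting. Leaving out 1 array leaves its repetition unbalanced. Differences ran ABCA1 from -0.25 to 0.14, ABCA13 from -0.084 to 0.063, ABCA2 from -0.26 to 0.19, ABCA3 from -0.10 to 0.094 and ABCA6 from -0.093 to 0.017. They ran ABCA7 from -0.14 to 0.19, ABCA9 from -0.059 to 0.12, ABCB1 from -0.17 to 0.093, ABCB10 from -0.088 to 0.18 and ABCB4 from -0.10 to 0.015. They ran ABCC1 from -0.091 to 0.031, ABCC10 from -0.022 to 0.085, ABCC4 from -0.22 to 0.025, ABCC8 from -0.14 to 0.040 and ABCD2 from -0.22 to 0.032. They ran ABCD3 from -0.13 to 0.23, ABCD4 from -0.035 to 0.18, ABCE1 from -0.096 to 0.37, ABCF1 from -0.084 to 0.25 and ABCF2 from -0.25 to 0.32. They ran ABCF3 from -0.067 to 0.21, ABCG1 from -0.071 to 0.039, ABCG4 from -0.28 to 0.018, ABCG5 from -0.22 to 0.057 and ABCG8 from -0.077 to 0.087. The count of members that differed between repetitions was 6 after repeated quantile normalization, all among the 10. It was 0 with the leading rows included, against 0.168% of all genes, and the cause was not tested. In that setting 14 members had an unadjusted limma p under 0.05. The share of all genes at that unadjusted threshold was not computed, so the 14 cannot be read as particular to the family. With an array left out it ran from 0 to 3. Dim probe sets and 3 arrays per fraction limit what can be seen: the median width of the 95% block interval was 0.42 on the log2 scale.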
